A study of Homo sapiens with 6 samples.

Results

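The 10 genes described here encode EZH2 and 9 further subunits of the polycomb repressive complexes 1 and 2 (PRC1 and PRC2). They are EZH2, EZH1, SUZ12, EED and JARID2 of PRC2 and BMI1, RING1, RNF2, CBX2 and CBX8 of PRC1. They were found by their Entrez Gene IDs among the 18795 genes of the deposited expression table, and all 10 were present. All 10 also averaged 1 FPKM or more over the 6 columns, as did 12454 genes in all, and these 12454 genes were tested. FPKM divides the fragments of a gene by transcript length and by library size, so levels can be set side by side between genes. Messenger RNA had been sequenced from HCC70 and MDA-MB-468, which are human cell lines of basal-like breast cancer bought from a cell bank and grown in RPMI and in Leibovitz L15 medium, each with 10% serum. Cells of both lines had been detached, fixed with methanol, labelled with antibodies and split by flow sorting into 3 populations, with no drug or genetic change named in the labels. The K18+ population was positive for keratin 18, a keratin of luminal epithelium. The K18+K14+ population was also positive for keratin 14, a keratin of basal epithelium, and the K18+Vim+ population was positive for keratin 18 and for vimentin, an intermediate filament of mesenchymal cells. With 1 library for each population of a line, a population is represented by n = 2 libraries. In comparisons of populations the replicates are the cell lines, and the p-values measure how far these disagree, not the spread between cultures. In the comparison of MDA-MB-468 with HCC70 the 3 sorted populations of a line stand in as its replicates. Those p-values do not cover the spread between cultures either, and line cannot be separated from medium. The study's title asks about the regulators of heterogeneity among such tumour cells and about their symmetric and asymmetric divisions.

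Polycomb proteins keep developmental genes silent. PRC2 places methyl groups on lysine 27 of histone H3 through EZH2 or its paralogue EZH1, and it needs the core subunits SUZ12 and EED to do so. PRC1 places ubiquitin on histone H2A through RING1 or RNF2 together with a PCGF protein such as BMI1, and its canonical form reads the methyl mark through a CBX protein. In mammary epithelium EZH2 and BMI1 are known for their part in progenitor self-renewal, and EZH2 is often high in basal-like tumours.

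The MDA-MB-468 library labelled K18+Vim+ differed in identity markers from the others of its line. SMAD4 and RB1, which MDA-MB-468 is known to lack, were listed at 5.19 and 6.68 FPKM there, against 0.31 to 0.566 and 0.269 to 0.307 FPKM in the other libraries of the line. EGFR, known as amplified in this line, was at 10.4 FPKM there against 70.7 and 153 FPKM. Its log2 profile correlated with the K18+ library of its line at r = 0.83, against 0.92 for the K18+K14+ library and 0.97 to 0.98 among the HCC70 libraries (Pearson, across 12454 genes, which are no replicates). Its 4 luminal markers (KRT18, KRT8, KRT19 and EPCAM) summed to 193 FPKM, against 1194 to 3028 FPKM in the other 5 libraries. This library is called the library in doubt, and the fits and comparisons that rest on it are also given for HCC70 alone or without it. The sort antigens otherwise followed the labels. KRT14 was at 48.6 FPKM in HCC70 K18+K14+ against 15.3 FPKM in K18+, and MDA-MB-468 had 279 and 47.8 FPKM, while VIM was at 54.8 against 13.4 FPKM in HCC70 K18+Vim+ and K18+. Markers of immune cells, fibroblasts, endothelium and erythroid cells summed to 7.60, 2.33, 0.506 and 1.05 FPKM at most, the first mostly CD68 in HCC70 (5.82 to 6.61 FPKM), with PECAM1 at the listed floor of 0.1 FPKM in every library. Because these are bulk samples, fewer cells of a type and less RNA per cell cannot be told apart.

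EZH2 (Entrez Gene 2146), the main methyltransferase of dividing cells, had the highest mean of the 10 genes, 52.9 ± 18.1 FPKM (SD, n = 6). Its levels in HCC70 were 63.1 FPKM in K18+, 68.5 FPKM in K18+K14+ and 64.2 FPKM in K18+Vim+ cells. In MDA-MB-468 they were 61.9 FPKM in K18+, 31.8 FPKM in K18+K14+ and, in the library with the K18+Vim+ label, 27.7 FPKM. The K18+ libraries of the lines were thus nearly level, and the low values were the 2 other libraries of MDA-MB-468. Within HCC70 the highest EZH2 value was 1.09 times the lowest, a range smaller than that of all but 4.34% of the 12454 genes, for which the median was 1.48 times. Within MDA-MB-468 the range was 2.23 times, near the median of all genes of 2.46 times.

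EZH1 (2145), the paralogue known from resting cells, ran the other way in the MDA-MB-468 vimentin library. It was at 12.9, 9.27 and 8.71 FPKM in HCC70 K18+, K18+K14+ and K18+Vim+, and at 6.76, 7.09 and 20.2 FPKM in the same order in MDA-MB-468. Its value of 20.2 FPKM stood above all others, and EZH1 was otherwise higher in HCC70 than in MDA-MB-468. EZH2 made up 83.0%, 88.1% and 88.1% of the summed EZH1 and EZH2 FPKM in HCC70 and 90.2%, 81.8% and 57.9% in MDA-MB-468. The 5 libraries other than MDA-MB-468 K18+Vim+ thus lay within 81.8% and 90.2%.

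SUZ12 (23512), the scaffold of PRC2, was at 10.9 FPKM in HCC70 K18+ and at 6.52 and 6.13 FPKM in K18+K14+ and K18+Vim+. In MDA-MB-468 it was at 10.7, 5.99 and 12.5 FPKM. Both K18+K14+ libraries were below both K18+ libraries, and the lines had nearly the same level in each of these populations. A partial pseudogene copy of SUZ12 is known, and reads shared with it could have been split, so the SUZ12 values are uncertain to that extent. EED (8726), the subunit that binds the methyl mark, was at 17.6, 20.8 and 16.3 FPKM in HCC70 against 45.0, 21.0 and 30.5 FPKM in MDA-MB-468. By far the highest was the MDA-MB-468 K18+ library, and the K18+K14+ libraries of the lines were nearly level. JARID2 (3720), an accessory subunit that helps to recruit PRC2, was the lowest of the 10 genes on average, with 2.87, 2.43 and 2.71 FPKM in HCC70 and 5.03, 6.68 and 3.59 FPKM in MDA-MB-468. All 3 MDA-MB-468 values lay above all 3 HCC70 values.

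The core subunits were far from equal in transcript level. EZH2 was 5.81, 10.5 and 10.5 times SUZ12 in HCC70 K18+, K18+K14+ and K18+Vim+, and 5.80, 5.31 and 2.22 times in MDA-MB-468. Against EED it was 3.59, 3.29 and 3.93 times in HCC70 and 1.37, 1.51 and 0.908 times in MDA-MB-468. The ratio to EED therefore separated the lines in every population, and the ratio to SUZ12 did so in the K18+K14+ and K18+Vim+ libraries only.

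BMI1 (648), the PCGF subunit that stimulates the ubiquitin ligase, varied most of the 10 genes, over 6.09 times between its lowest and highest library. It was at 12.2, 7.83 and 9.10 FPKM in HCC70 against 8.14, 2.70 and 16.4 FPKM in MDA-MB-468. Both extremes were MDA-MB-468 libraries, K18+K14+ at the bottom and the library labelled K18+Vim+ at the top. A readthrough gene that covers BMI1 and its neighbour, COMMD3-BMI1, was listed at 2.83, 1.21 and 0.385 FPKM in HCC70 against 0.1, 0.1 and 3.23 FPKM in MDA-MB-468 (named after its values were seen), so the split of reads between the 2 leaves BMI1 uncertain.

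RING1 (6015) and RNF2 (6045) are the alternative ligases of PRC1. RING1 was at 24.2, 16.9 and 17.7 FPKM in HCC70 against 35.1, 36.4 and 24.6 FPKM in MDA-MB-468, without overlap between the lines, although the closest values were 24.2 and 24.6 FPKM. RNF2 was at 7.75, 5.10 and 5.01 FPKM in HCC70 against 5.11, 4.05 and 7.57 FPKM in MDA-MB-468. RNF2 made up 24.3%, 23.2% and 22.0% of the sum of both in HCC70 and 12.7%, 10.0% and 23.5% in MDA-MB-468. The MDA-MB-468 library labelled K18+Vim+ thus had a share within the HCC70 range, and the 2 other libraries of the line a lower share.

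CBX2 (84733) and CBX8 (57332) encode readers of the methyl mark and lie next to each other on chromosome 17. CBX2 was at 7.31, 7.69 and 7.73 FPKM in HCC70, a range of 1.06 times that was smaller than that of all but 2.35% of genes tested. In MDA-MB-468 it was at 11.9, 15.7 and 12.8 FPKM, above every HCC70 value. CBX8 was at 3.49, 4.36 and 2.31 FPKM in HCC70 against 6.67, 2.71 and 5.91 FPKM in MDA-MB-468, so the neighbouring genes CBX2 and CBX8 did not share a pattern. In K18+K14+ against K18+ of MDA-MB-468 CBX2 was 1.32 times higher and CBX8 2.46 times lower.

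**Figure D1:**
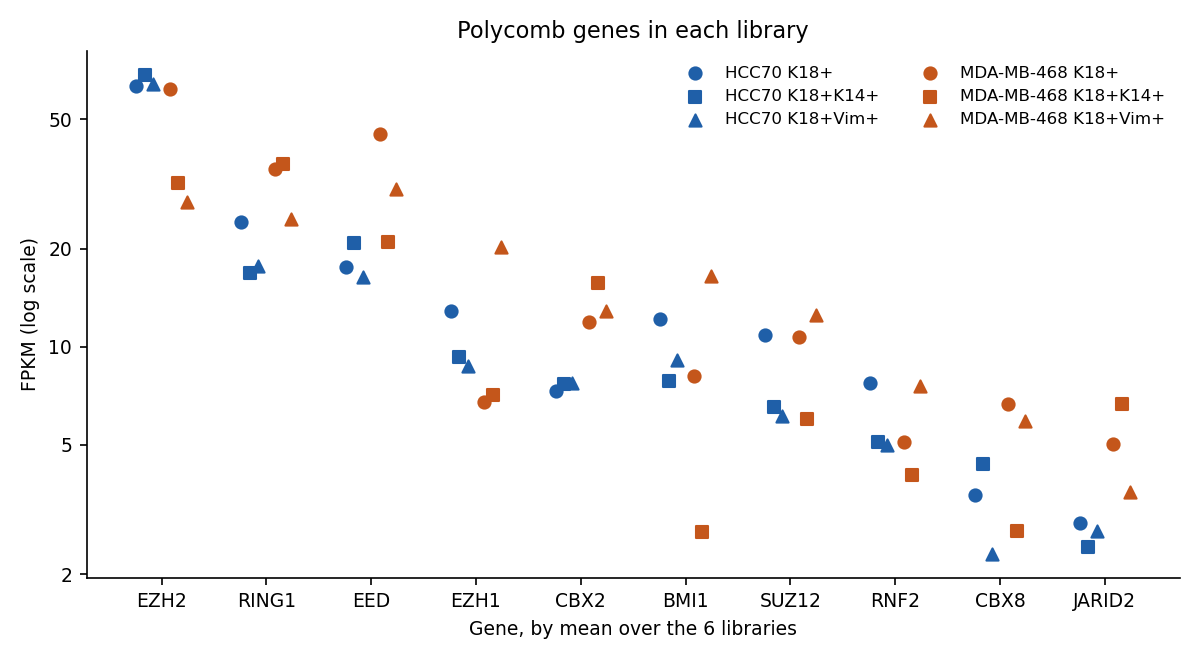
FPKM of the 10 polycomb genes on a log axis, ordered by their mean over the 6 libraries, with 1 point per library; colour gives the line and shape the population. EZH2 is at 61.9 to 68.5 FPKM in 4 libraries and at 31.8 and 27.7 FPKM in MDA-MB-468 K18+K14+ and K18+Vim+, and BMI1 spans 2.70 to 16.4 FPKM.

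By mean over the 6 libraries the order was EZH2, RING1 (25.8 ± 8.34 FPKM), EED (25.2 ± 10.9), EZH1 (10.8 ± 5.08), CBX2 (10.5 ± 3.48), BMI1 (9.39 ± 4.61), SUZ12 (8.78 ± 2.89), RNF2 (5.76 ± 1.52), CBX8 (4.24 ± 1.75) and JARID2 (3.88 ± 1.66; SD, n = 6 for each). Every gene overlapped its neighbour in this order over the libraries, and even EZH2 was exceeded by RING1 in MDA-MB-468 K18+K14+ (36.4 FPKM) and by EED in the MDA-MB-468 library labelled K18+Vim+ (30.5 FPKM). The sum over the 10 genes was 162, 149 and 140 FPKM in HCC70 and 196, 134 and 162 FPKM in MDA-MB-468, so K18+ was the highest population of each line. The median over all genes tested was also highest in K18+, at 11.8, 9.99 and 10.01 FPKM in HCC70 and 10.6, 8.12 and 9.53 FPKM in MDA-MB-468.

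The sequences before the transcription start are printed for 5 of the genes. EZH2 and EZH1 are printed as paralogues, and SUZ12, BMI1 and RNF2 are the genes that were lower in K18+K14+ than in K18+ in both lines. Of the 10 genes 8 were matched in the RefSeq promoter table (GRCh38.p14), with 11 start sites, and CBX2 and CBX8 were not matched. Each sequence is the 250 bases before the start, 5′ to 3′ on the strand of the gene, and where RefSeq has 2 starts (EZH2 and BMI1) the more upstream is shown. The windows are chr7:148884292-148884541 (minus strand) for EZH2, chr17:42745041-42745290 (minus strand) for EZH1, chr17:31936757-31937006 (plus strand) for SUZ12, chr10:22320849-22321098 (plus strand) for BMI1 and chr1:185045308-185045557 (plus strand) for RNF2. Capitals mark 2 kinds of motif searched on both strands, the CCAAT box (CCAAT, or ATTGG where it lies on the other strand) and the E2F words TTTGGCGC and TTTCCCGC, and no motif overlapped another.
EZH2: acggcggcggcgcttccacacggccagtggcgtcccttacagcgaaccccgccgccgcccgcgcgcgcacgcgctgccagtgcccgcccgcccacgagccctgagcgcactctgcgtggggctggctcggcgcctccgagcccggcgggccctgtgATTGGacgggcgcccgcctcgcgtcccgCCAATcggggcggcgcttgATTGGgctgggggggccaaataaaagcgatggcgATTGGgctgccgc
EZH1: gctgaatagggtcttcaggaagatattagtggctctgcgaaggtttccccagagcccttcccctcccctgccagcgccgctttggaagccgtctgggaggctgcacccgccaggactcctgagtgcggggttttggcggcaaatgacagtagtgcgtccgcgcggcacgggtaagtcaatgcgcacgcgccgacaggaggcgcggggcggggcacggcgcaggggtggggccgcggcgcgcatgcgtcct
SUZ12: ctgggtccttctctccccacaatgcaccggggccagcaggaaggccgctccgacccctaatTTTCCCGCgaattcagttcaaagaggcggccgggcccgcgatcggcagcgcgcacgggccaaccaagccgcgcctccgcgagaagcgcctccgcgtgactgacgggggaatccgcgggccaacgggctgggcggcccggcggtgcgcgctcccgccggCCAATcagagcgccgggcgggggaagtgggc
BMI1: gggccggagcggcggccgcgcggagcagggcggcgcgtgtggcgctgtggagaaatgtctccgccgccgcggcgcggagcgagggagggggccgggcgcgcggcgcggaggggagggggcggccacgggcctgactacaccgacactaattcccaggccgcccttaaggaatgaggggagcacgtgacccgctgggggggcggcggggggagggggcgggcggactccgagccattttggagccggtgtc
RNF2: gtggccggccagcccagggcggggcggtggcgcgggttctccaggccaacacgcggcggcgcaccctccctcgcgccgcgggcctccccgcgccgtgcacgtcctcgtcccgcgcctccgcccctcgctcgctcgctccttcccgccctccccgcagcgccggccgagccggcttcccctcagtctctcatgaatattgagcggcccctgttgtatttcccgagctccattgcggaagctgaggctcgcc

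The printed EZH2 window holds 4 CCAAT boxes, at 94 to 90, 66 to 62, 47 to 43 and 13 to 9 bases before the start, of which the second reads along the gene and the others on the opposite strand. The window of the other EZH2 start holds no CCAAT box, and neither EZH2 window holds an E2F word. Of 35116 promoter windows of the same length 32.0% hold at least 1 CCAAT box and 0.874% hold 4 or more. The SUZ12 window holds TTTCCCGC at 189 to 182 bases and a CCAAT box at 31 to 27 bases before the start, and 1.93% of all windows hold either E2F word. The EED window and the more upstream JARID2 window hold 1 CCAAT box each. Neither motif is in the EZH1, BMI1, RNF2 and RING1 windows, which says only that these letters are not there. The printed windows were rich in G and C, from 67.6% in EZH1 to 76.8% in BMI1.

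In K18+K14+ against K18+ cells no polycomb gene passed the test, and SUZ12, BMI1 and RNF2 were the genes with lower values in both lines. SUZ12 was 1.67 times lower in HCC70 and 1.78 times lower in MDA-MB-468, and BMI1 1.55 and 3.01 times. RNF2 was 1.52 and 1.26 times lower, but with quantile normalization, which sets the median of all genes near 0, its log2 ratio in MDA-MB-468 turned to 0.10. EZH2 differed between the lines, being 1.09 times higher in HCC70 K18+K14+ and 1.95 times lower in MDA-MB-468 K18+K14+. EED and CBX8 showed the same opposition, with EED 1.18 times higher and 2.14 times lower and CBX8 1.25 times higher and 2.46 times lower. CBX2 alone was higher in both lines, by 1.05 and 1.32 times.

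The fit over all genes in limma gave a log2 difference on the log2(FPKM + 1) scale of -0.94 ± 0.54 for BMI1 (SE, adjusted p = 0.855), of -0.70 ± 0.42 for SUZ12 (adjusted p = 0.855) and of -0.41 ± 0.46 for EZH2 (adjusted p = 0.877). None of the 10 genes and none of the 12454 genes tested (0.0%) had an adjusted p under 0.05, and at an unadjusted p under 0.05 there were 0 of the 10 genes and 428 genes in all, which is 3.44%. The 3 genes lower in both lines stand against 43.7% of all genes, and the 1 gene higher in both against 20.2%, so neither count exceeds the background. With quantile normalization these shares were 30.7% lower and 31.3% higher, with 2 of the 10 genes lower (SUZ12 and BMI1) and 2 higher (CBX2 and JARID2). The median log2 ratio of the members was -0.31 (HCC70) and -0.51 (MDA-MB-468), where that of all genes was -0.15 and -0.17. In MDA-MB-468, 8.38% of genes had a lower ratio than BMI1, 13.8% than EED, 14.2% than CBX8 and 17.2% than EZH2. The ratios do not use the library in doubt, but the fit does. Without it BMI1 was at -0.94 ± 0.35 (limma, unadjusted p = 0.0262, adjusted p = 0.389), which made it the only polycomb gene at an unadjusted p under 0.05, as 12.8% of all genes were. With K18+K14+ of MDA-MB-468 left out the BMI1 difference was -0.25 and that of SUZ12 -0.42, and with K18+K14+ of HCC70 left out that of BMI1 was -1.63. The line term of these fits rests on K18+ and K18+Vim+, and so on the library in doubt. The ratios within HCC70 itself were -0.58 for BMI1 and -0.66 for SUZ12, and that of BMI1 within MDA-MB-468 was -1.30.

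Ratios between K18+K14+ and K18+ moved with transcript length over all genes. Across 12409 genes with a known length, Spearman's rho between the longest protein-coding transcript and the log2 ratio was -0.25 for HCC70 and -0.32 for MDA-MB-468 (a description across genes of the same libraries). In MDA-MB-468 the median log2 ratio was 0.60 for the shortest class, of 1005 bases, and -0.43 for the longest, of 9694 bases. The polycomb transcripts ran from 1752 bases for RING1 to 5755 bases for JARID2. With the length trend of each library removed, BMI1 was at -0.61 for HCC70 and -1.32 in MDA-MB-468, SUZ12 at -0.64 and -0.65, and EZH2 at 0.03 and -1.09. RING1 was then at -0.64 and -0.38, where before it was at -0.50 and 0.05. The corrected ratios keep the shift between library medians, so 0 is not the level of all genes in them. Before correction RING1 lay only a little below genes of similar length in MDA-MB-468, where the classes of 1554 and 1949 bases had medians of 0.22 and 0.07. The same classes had medians of -0.04 and -0.06 in HCC70, so RING1 lay further below them there. The cause of the length trend was not tested.

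**Figure D2:**
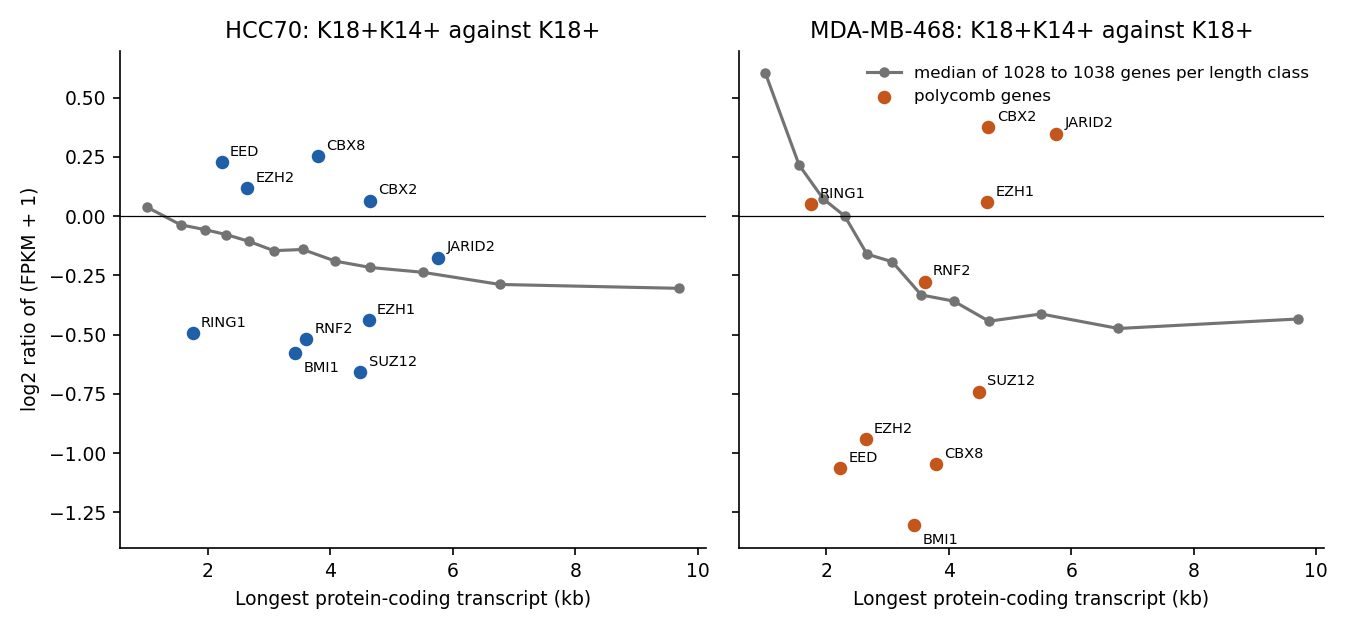
Log2 ratio of K18+K14+ against K18+ on the (FPKM + 1) scale against the length of the longest protein-coding transcript in kilobases, with HCC70 on the left and MDA-MB-468 on the right. The grey line joins the medians of 12 length classes of all genes tested and the coloured points are the 10 polycomb genes. Of these SUZ12, BMI1 and RING1 lie below the grey line in both cell lines.

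In K18+Vim+ against K18+ cells the lines went apart, and no polycomb gene passed the test. Within HCC70 SUZ12 was 1.77 times lower in K18+Vim+, RNF2 1.55 times, CBX8 1.51 times, EZH1 1.48 times, RING1 1.36 times and BMI1 1.34 times, while EZH2, EED, CBX2 and JARID2 were within 1.08 times of their K18+ level. In the MDA-MB-468 library labelled K18+Vim+, EZH1 was 2.98 times higher than in K18+, BMI1 2.02 times, RNF2 1.48 times and SUZ12 1.17 times, and EZH2 was 2.23 times lower. EED, RING1, CBX8 and JARID2 were lower in both lines, 4 of 10 against 33.9% of all genes, and CBX2 was higher in both, 1 of 10 against 16.5%. With quantile normalization EED and JARID2 turned positive in HCC70 (0.10 and 0.12 on the log2 scale), so that RING1 and CBX8 remained, against 24.3% of all genes.

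The fitted log2 difference was -0.55 ± 0.46 for EZH2 (SE, limma, adjusted p = 0.871), 0.46 ± 0.54 for EZH1 (adjusted p = 0.932) and -0.46 ± 0.39 for RING1 (adjusted p = 0.880). No gene was called (0.0% of 12454), and 532 genes or 4.27% had an unadjusted p under 0.05, with 0 of the 10 among them. Without the library in doubt the fitted difference of EZH2 was -0.24, that of RING1 -0.29 and that of EZH1 reversed to -0.39. K18+Vim+ is then the HCC70 library alone, and the line term of the fit draws on K18+ and K18+K14+ of both lines. Within HCC70 itself the log2 ratio was 0.03 for EZH2, -0.43 for RING1 and -0.52 for EZH1. The median log2 ratio of the members was -0.40 (HCC70) and -0.03 (MDA-MB-468), and that of all genes -0.16 and -0.04. In HCC70 the ratio was also related to length (rho = -0.18 across the 12409 genes).

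In K18+Vim+ against K18+K14+ cells BMI1 was the only polycomb gene higher in both lines, by 1.16 times in HCC70 and 6.09 times in MDA-MB-468. EZH2 was the only gene lower in both, by 1.07 and 1.15 times. Each is 1 of 10 genes, where 25.6% of all genes were higher and 23.7% lower in both lines. With quantile normalization CBX2 was also lower in both lines, at log2 ratios of -0.0032 (HCC70) and -0.38 (MDA-MB-468). The share of all genes lower in both was then 24.4%. The fitted difference was 1.22 ± 0.54 for BMI1 (SE, limma, adjusted p = 0.682), 0.65 ± 0.54 for EZH1 (adjusted p = 0.712) and -0.14 ± 0.46 for EZH2 (adjusted p = 0.923). No gene passed the adjusted threshold (0.0% of those tested), and 680 genes or 5.46% had an unadjusted p under 0.05, none of them a polycomb gene. With the HCC70 K18+Vim+ library left out, so that the comparison rests on the library in doubt, BMI1 was at 2.06. Many other genes passed the threshold in that fit as well as BMI1. With the library in doubt left out instead, the fitted difference of BMI1 was 0.38, where its log2 ratio within HCC70 was 0.19. CBX8 had opposite signs, 1.89 times lower in HCC70 and 2.18 times higher in MDA-MB-468.

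**Figure D3:**
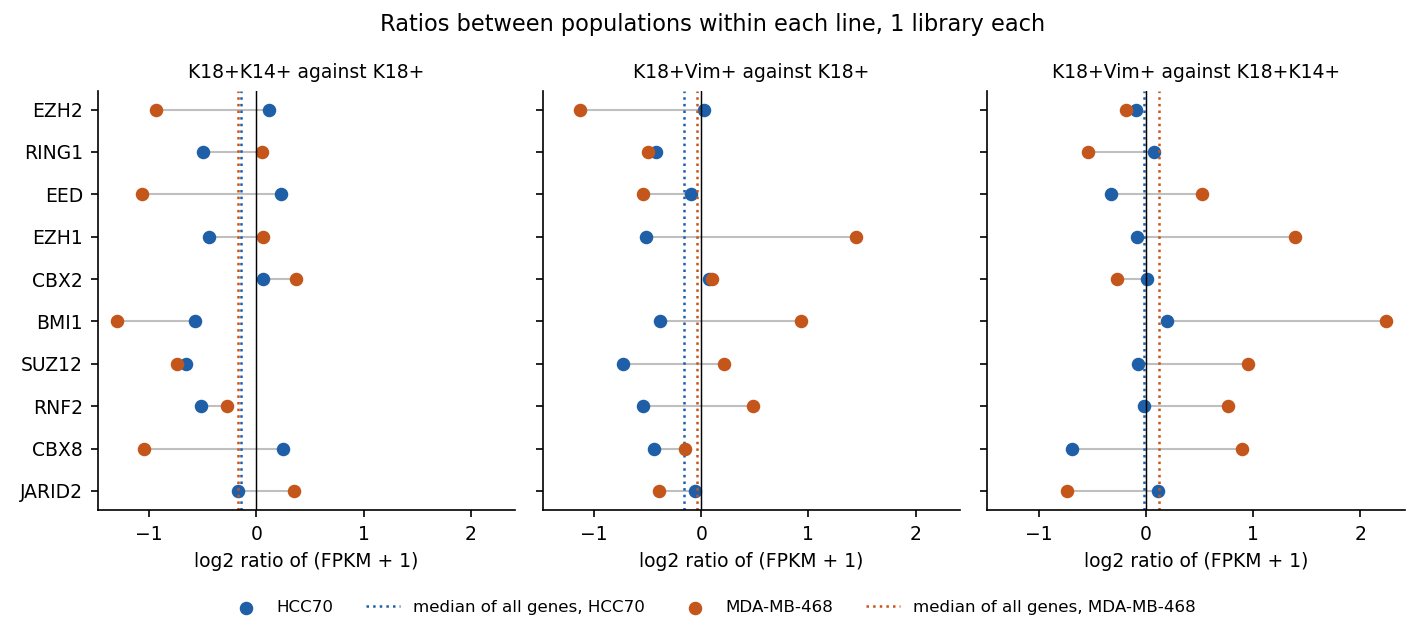
Log2 ratios of (FPKM + 1) between populations for the 10 polycomb genes, 1 panel per comparison and 1 point per line, with dotted lines at the median of all genes tested in each line. In K18+K14+ against K18+ the MDA-MB-468 points of EZH2, EED, BMI1 and CBX8 lie near -1, and in both vimentin panels EZH1 and BMI1 have MDA-MB-468 points far to the right of those of HCC70.

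Between the lines, over all populations, EED, RING1, CBX2 and JARID2 were higher in all 3 MDA-MB-468 libraries than in all 3 HCC70 libraries. These are 4 of 10 genes, against 20.1% of all genes. EZH2 was higher in every HCC70 library (1 of 10, against 21.0%), although the gap between its closest values was only that between 63.1 and 61.9 FPKM. In K18+ cells MDA-MB-468 had 2.56 times the EED, 1.91 times the CBX8, 1.75 times the JARID2 and 1.63 times the CBX2 of HCC70, and HCC70 had 1.91 times the EZH1. In K18+K14+ cells MDA-MB-468 had 2.75 times the JARID2, 2.16 times the RING1 and 2.05 times the CBX2, and HCC70 had 2.90 times the BMI1 and 2.15 times the EZH2.

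None of these differences passed the test. The fitted log2 difference of MDA-MB-468 against HCC70 was -0.76 ± 0.37 for EZH2 (SE, limma, adjusted p = 0.204), 0.75 ± 0.30 for CBX2 (adjusted p = 0.140) and 0.73 ± 0.37 for EED (adjusted p = 0.216). Without the library in doubt these were -0.56, 0.79 and 0.66, and BMI1 moved from -0.33 to -0.89 (adjusted p = 0.0918). Among all genes 1522 or 12.2% were called, and 0 of the 10 polycomb genes. Calls between the lines rest on sorted populations of a single line on each side, so they do not cover the spread between cultures. At an unadjusted p under 0.05 there were 4116 genes or 33.0%, with CBX2 the only polycomb gene. Without the library in doubt there were 40.5% of all genes and 4 of the 10 (BMI1, RING1, CBX2 and JARID2). Without both K18+Vim+ libraries the called share was 27.0% (3366 genes), and without the MDA-MB-468 one alone 26.9% (3344 genes), again with 0 of the 10 genes. Both fits have the same differences between the lines by design, so their likeness is no separate check. In the 4 libraries of K18+ and K18+K14+, EED, RING1, CBX2 and JARID2 were again higher in MDA-MB-468 without overlap (30.4% of all genes were), and EZH2 and EZH1 were higher in HCC70 (32.2% of all genes). JARID2 came nearest to a call there, with a log2 difference of 0.90 ± 0.34 (adjusted p = 0.081).

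Shares among paralogues were also taken for the PCGF genes. BMI1 held 10.9%, 8.15% and 10.6% of the summed FPKM of BMI1, PCGF1, PCGF3, PCGF5 and PCGF6 in HCC70 and 5.98%, 1.85% and 10.4% in MDA-MB-468. The lines overlapped only through the last value, which is from the library in doubt. PCGF1, the subunit of a variant PRC1, was the largest of these in every library, with 50.9% to 63.2% in HCC70 and 56.1% to 74.6% in MDA-MB-468.

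**Figure D4:**
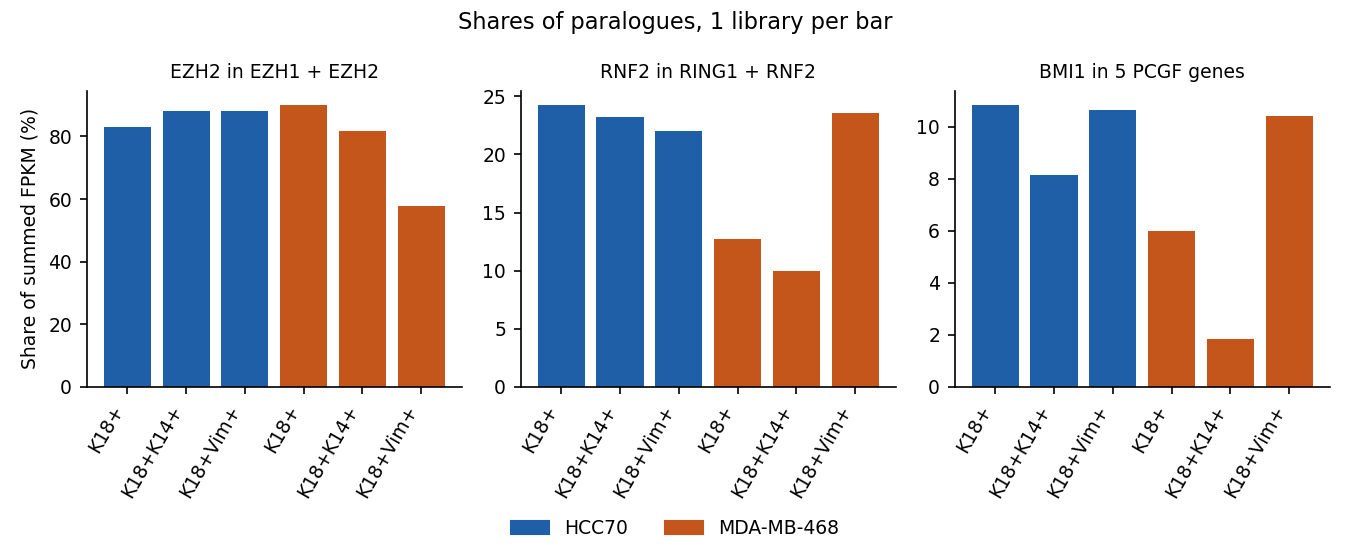
Share of summed FPKM in percent held by EZH2, RNF2 and BMI1 among their paralogues, with 1 bar per library, from 0, and a scale of its own in each panel. The EZH2 share is lowest in MDA-MB-468 K18+Vim+ at 57.9%, and the BMI1 share in MDA-MB-468 K18+K14+ at 1.85%.

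Other known subunits of the complexes were counted as well, and each count is to be read against the 43.7% of all genes that were lower and the 20.2% that were higher in both lines. Of 7 further PRC2 subunits tested, 3 were lower and 1 higher in K18+K14+ than in K18+ in both lines, with a median difference of -0.33 against -0.16 for all genes. The 3 were LCOR (3.07 to 1.01 FPKM in HCC70 and 2.62 to 0.908 FPKM in MDA-MB-468), the histone chaperone RBBP4 (50.4 to 30.7 and 35.7 to 6.47 FPKM) and MTF2 (26.2 to 16.9 and 16.5 to 7.24 FPKM), which recruits PRC2 to CpG islands. Of 15 subunits of variant PRC1, 7 were lower and 1 higher in both lines (median -0.37), among them YAF2 (5.99 to 3.18 and 6.11 to 2.97 FPKM) and RYBP (2.65 to 1.33 and 3.42 to 1.62 FPKM), alternative partners of RING1 and RNF2. Of 9 canonical PRC1 subunits, 3 were lower and 2 higher (median -0.13), with the lower ones led by PHC1 (5.63 to 2.14 and 2.43 to 0.775 FPKM). None of these was called. With quantile normalization (30.7% lower and 31.3% higher over all genes) the lower and higher counts were 5 and 1 for PRC2, 7 and 3 for variant PRC1 and 2 and 4 for canonical PRC1.

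Between the lines, 1 of 9 canonical and 2 of 15 variant subunits of PRC1 were called in limma, and none of the 7 further PRC2 subunits. Of all genes 12.2% were called. SCML2 was at 0.458 to 0.89 FPKM in HCC70 against 4.68 to 25.5 FPKM in MDA-MB-468, with a log2 difference of 2.66 ± 0.46 (SE, adjusted p = 0.0218). AUTS2 was at 34.8 to 48.4 FPKM in HCC70 and 5.97 to 14.03 FPKM in MDA-MB-468 (-2.06 ± 0.32, adjusted p = 0.0176). USP7, a deubiquitinase found with variant PRC1, was at 58.5 to 105 FPKM in HCC70 and 4.19 to 28.1 FPKM in MDA-MB-468 (-2.49 ± 0.57, adjusted p = 0.0418). In the 4 libraries without K18+Vim+ the same genes were called, and FBRS of variant PRC1 was added (-1.58), where 27.0% of all genes were called.

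The enzymes that undo the polycomb marks (KDM6A, KDM6B and BAP1) were listed with associated ASXL, FOXK and MBD genes. This list gave no call in any comparison of the full fit. KDM6A, a demethylase of lysine 27, was called between the lines only in the 4 libraries without K18+Vim+ (log2 difference -1.55, limma, adjusted p = 0.0294), as 27.0% of all genes were. It was at 11.9, 9.12 and 7.18 FPKM in HCC70 against 6.62, 0.997 and 17.7 FPKM in MDA-MB-468. BMI1, SUZ12 and RNF2 had the same order in the latter line, where the highest value is from the library in doubt. In K18+K14+ against K18+, 4 of 9 genes of this list were lower in both lines and 3 higher (median -0.31). Of 9 trithorax and SWI/SNF genes, which act against polycomb silencing, 6 were lower and 1 higher (median -0.35), with KMT2C at 17.8 to 10.6 FPKM in HCC70 and 10.4 to 3.60 FPKM in MDA-MB-468. SMARCA4, the ATPase of SWI/SNF, was the higher one, at 167 to 205 and 213 to 333 FPKM, but with quantile normalization its log2 ratio in MDA-MB-468 was -0.02. The lower and higher counts were then 4 and 0 for this list and 3 and 4 for the list with KDM6A. The shares of all genes were 43.7% and 20.2% before and 30.7% and 31.3% after.

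EZH2 is known as a target of E2F factors and follows proliferation in many tissues. E2F1 was higher in K18+K14+ than in K18+ in both lines, at 25.3 to 33.6 FPKM in HCC70 and 36.2 to 57.0 FPKM in MDA-MB-468, and E2F2 likewise at 25.6 to 32.0 and 13.0 to 17.3 FPKM. RBL2, a repressor of the RB family, was lower, at 25.8 to 17.7 and 13.4 to 2.06 FPKM. Of 12 genes of this family, 6 were lower and 2 higher in both lines, and of 17 proliferation genes 7 were lower and 5 higher (43.7% and 20.2% of all genes), all without a call. With quantile normalization these were 4 and 3, and 6 and 3 (30.7% and 31.3% of all genes). Thymidine kinase TK1 was higher (39.5 to 58.7 and 80.7 to 127 FPKM) and CDK1 lower (64.2 to 45.6 and 104 to 41.6 FPKM). EZH2 relative to the proliferation gene TOP2A was at 1.08, 0.941 and 0.934 in HCC70 and at 0.461, 0.172 and 0.144 in MDA-MB-468, and relative to MKI67 at 3.61, 4.51 and 4.07 and at 2.70, 4.97 and 1.49. The lines were thus apart in the first ratio in every population and overlapped in the second.

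Between the lines 2 of 17 proliferation genes were called, both higher in MDA-MB-468, a share near the 12.2% of all genes. TYMS was at 23.6 to 34.1 FPKM in HCC70 and 47.7 to 163 FPKM in MDA-MB-468 (log2 difference 1.81 ± 0.39, SE, limma, adjusted p = 0.0358). TOP2A was at 58.5 to 72.8 and 134 to 192 FPKM (1.33 ± 0.33, adjusted p = 0.0480). In the 4 libraries without K18+Vim+ both were called as well, with AURKA higher (1.16) and MCM4 lower (-1.38) in MDA-MB-468. Of all genes 27.0% were called there. The proliferation list had a median difference of 0.68 and the polycomb genes of 0.35, where all genes had 0.01. Without the library in doubt these were 0.64, 0.03 and -0.05. None of the 12 genes of the E2F and RB list was called in the full fit. In the 4 libraries without K18+Vim+, E2F4, RB1 and RBL2 were called lower in MDA-MB-468, 3 of 12 against 27.0% of all genes.

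Genes with profiles most like that of EZH2 were found by the root mean square difference of log2(FPKM + 1) profiles, each centred on its own mean. Over the 6 libraries GSE1 (0.066), BID (0.073), SIX5 (0.10) and SREBF1 (0.11) were among the 5 nearest, where the median of 12437 genes was 0.73. GSE1 was at 35.0, 34.1 and 31.6 FPKM in HCC70 against 32.4, 15.7 and 14.9 FPKM in MDA-MB-468. Over the 5 libraries without the one in doubt the nearest were RAPGEF1 (0.030), MED24 (0.033), ZNF782 (0.043), DHX35 (0.055) and GSE1 (0.062), with a median of 0.56, and GSE1 was thus among the nearest in both sets. None of the other 9 polycomb genes was among the 5 nearest in either set. Their places ran from 4292 (RNF2) to 8134 (CBX2) of 12437 over the 6 libraries, and from 1388 (BMI1) to 9311 (JARID2) over the 5 libraries. SUZ12 and EED, the partners of EZH2 in the enzyme, were at places 5911 and 6967 over the 6 libraries. Over the 5 libraries they were at places 3611 and 7222, and EZH1 moved from place 8011 to 2799.

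HOX genes are the classic targets of polycomb silencing, and they set the MDA-MB-468 library labelled K18+Vim+ apart more than any polycomb gene did. The 9 HOXD genes summed to 0.9, 0.919 and 0.9 FPKM in HCC70 K18+, K18+K14+ and K18+Vim+, with 8 or 9 of them at the listed floor of 0.1 FPKM. In MDA-MB-468 they summed to 3.12 and 1.38 FPKM in K18+ and K18+K14+ and, in the K18+Vim+ library, to 158 FPKM. The 11 HOXA genes summed to 20.0 to 20.8 FPKM in HCC70, to 27.9 and 30.1 FPKM in MDA-MB-468 K18+ and K18+K14+, and to 318 FPKM in the library in doubt. The 10 HOXB genes gave 54.0 to 62.9, 19.2 and 29.5, and 132 FPKM in the same order. The sums of the 9 HOXC genes were near each other, at 57.7 to 75.9 FPKM in HCC70 and 51.7 to 58.7 FPKM in MDA-MB-468. EZH2 was at its lowest and EZH1 at its highest in the library with the high HOX sums, but SMAD4, RB1, EGFR and the luminal markers also differed there, and these cannot be told apart.

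**Figure D5:**
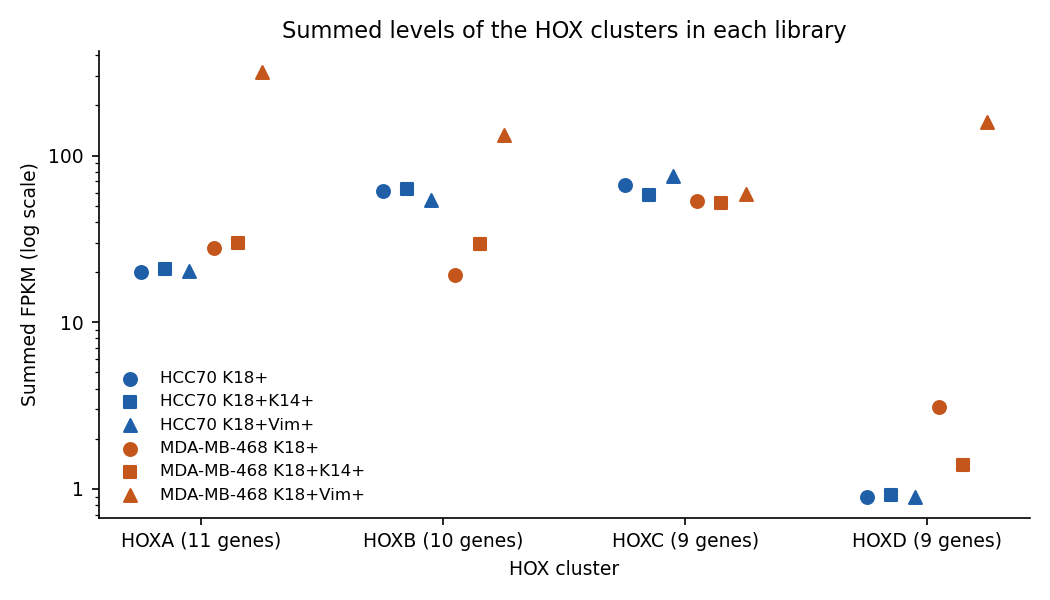
Summed FPKM of the genes of each HOX cluster on a log axis, 1 point per library, with colour for the line and shape for the population. MDA-MB-468 K18+Vim+ is at 318, 132 and 158 FPKM for HOXA, HOXB and HOXD and within the other libraries for HOXC at 58.7 FPKM.

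Of the HOX genes 30 passed the filter, and in HCC70 their median log2 ratio of K18+Vim+ against K18+ was 0.00, against 2.16 in MDA-MB-468. Some of them passed only through their high values in the library in doubt. HOXD9, for example, was at 0.1 FPKM in every HCC70 library and at 0.785, 0.393 and 56.9 FPKM in MDA-MB-468. The filter thus raised the median of 2.16 in part, and the median of 0.00 includes genes at the floor. HOXC9 and HOXC6 were higher in K18+Vim+ than in K18+ in both lines, at 8.91 to 14.9 and 13.1 to 19.8 FPKM for HOXC9 and at 9.04 to 11.8 and 8.20 to 15.9 FPKM for HOXC6, and neither was called. Between K18+K14+ and K18+ the median of the list was 0.00 for HCC70 and -0.19 for MDA-MB-468, where that of all genes was -0.15 and -0.17. Between the lines 3 of the 30 HOX genes were called, against 12.2% of all genes. They were HOXC10, HOXC12 and HOXB2, all lower in MDA-MB-468. HOXB2 was at 12.9 to 14.8 FPKM in HCC70 and 0.585 to 6.21 FPKM in MDA-MB-468 (log2 difference -2.40 ± 0.51, SE, limma, adjusted p = 0.0344). In the 4 libraries without K18+Vim+ 6 were lower, which were these 3 and HOXB3, HOXB5 and HOXB6, and HOXA4 and HOXA5 were higher. Of all genes 27.0% were called there.

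Of 10 other genes known as polycomb targets, 9 passed the filter and 3 were called between the lines, where 12.2% of all genes were called. E-cadherin (CDH1), a junction protein reported as an EZH2 target, was at 33.1 to 53.3 FPKM in HCC70 and 2.40 to 14.03 FPKM in MDA-MB-468 (log2 difference -2.25 ± 0.42, SE, limma, adjusted p = 0.0275). CDKN2B, a kinase inhibitor of the INK4 locus, was also called (-1.77 ± 0.31, adjusted p = 0.0218). CDH1 and CDKN2B were called in the 4 libraries without K18+Vim+ too, and so were CDKN2A (-1.59) and 27.0% of all genes. The calls went both ways, with 1 gene of the list higher and 2 lower in MDA-MB-468 in the full fit. In the 4 libraries 1 was higher and 3 were lower. CDKN2B was also lower in K18+Vim+ than in K18+ in both lines, at 44.6 to 25.0 FPKM and 13.8 to 7.22 FPKM, without a call. RUNX3 was higher in K18+K14+ in both lines, at 10.0 to 12.3 and 6.10 to 17.8 FPKM, also without a call. The median of the list in K18+K14+ against K18+ was 0.11, against -0.16 for all genes.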

How the data were processed

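Total RNA had been recovered from fixed, antibody-stained and sorted cells with a kit for fixed tissue, per the labels' protocols. TopHat2 and GRCh37 are named in the submitters' processing notes, and the counting tool is not given in the sources used here. Values are FPKM that the authors deposited by Entrez Gene ID in 1 table of 18807 rows. Its values run from 0.1 to 10000 FPKM, and read depth is unknown, so counting intervals cannot be had. Rows with a blank (7) were dropped, and each of 5 repeated IDs kept its row of higher mean. Of 18795 IDs 18732 matched a symbol (RefSeq, GRCh38.p14, used for names and promoter windows only).

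Genes averaging 1 FPKM or more were fitted as log2(FPKM + 1) in limma 3.58.1 (R 4.3.3, lmFit, eBayes with trend) with population and line as terms, which leaves 2 residual degrees of freedom. Cell line pairs the populations, as each line has 1 library of each. P-values were adjusted by Benjamini-Hochberg over all genes within each of 4 comparisons, at 0.05. The script was tested on simulated data. Lengths are the longest protein-coding transcripts of GENCODE, and the length trend was a lowess curve (span 0.3). Tables were made in Python 3.11.15 with pandas 2.3.3 and scipy 1.17.1.

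The members and the 10 lists (144 genes) were chosen with earlier results of these data known. By rule all members were named, with fitted values for EZH2 and the 2 other members of largest difference per comparison, up to 3 genes per list and the 5 genes most like EZH2. JARID2, CDKN2B and other list genes named for their call between the lines were named after their values were seen. PCGF2, EPOP and UHRF1 were not matched. Some genes that these rules name are not reported here, and the counts over lists include them. Alternatives were no block for line, only the libraries compared, pseudocounts of 0.1 and 5, no filter or 5 FPKM, quantile normalization, no trend, the length correction and leaving out each library.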

Additional observations from a re-analysis of the deposited data

Results flagged for a closer look

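EZH1 had opposite signs in the lines for K18+Vim+ against K18+, with log2 ratios of -0.52 (HCC70) and 1.45 (MDA-MB-468), which lie 1.97 apart. CBX8 did so for K18+Vim+ against K18+K14+, with -0.69 (HCC70) and 0.90 (MDA-MB-468), which lie 1.59 apart. Both were noted because each line passed a log2 size of 0.5 in its own direction. With 1 library per line and population the difference between the lines was not tested, and both MDA-MB-468 values rest on the library labelled K18+Vim+ whose SMAD4, RB1 and EGFR levels go against its line.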

How the results depend on the processing

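Of 180 values of the 12 fitted differences under 15 alternatives, 172 kept their direction and their side of the threshold, 7 reversed and 1 came past it, and these 8 all left out a library. Where that leaves a population with 1 library, it is assumed to vary like the others. The fitted difference then also draws on the other populations through the line term. It can differ even in sign from the ratio within the line that remains. Over the libraries left out, the EZH2 difference ran from -0.96 to 0.14 in K18+K14+ against K18+ (0.14 without the MDA-MB-468 K18+ library), from -1.10 to 0.00087 in K18+Vim+ against K18+, and from -0.45 to 0.17 in K18+Vim+ against K18+K14+. The EZH1 difference ran from -0.39 to 1.32 and from -0.21 to 1.51 in the latter 2 comparisons, and was -0.15 in K18+Vim+ against K18+ without the MDA-MB-468 K18+ library. EZH2 was at 0.10 in K18+Vim+ against K18+K14+ without the HCC70 K18+K14+ library. Between the lines EZH2 ran from -1.13 to -0.56 and EED from 0.44 to 1.09. BMI1 ran from 0.38 to 2.06 in K18+Vim+ against K18+K14+. It came past the threshold only without the HCC70 K18+Vim+ library, where many other genes did as well.

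The number of genes called ran from 0 to 1 in K18+K14+ against K18+, from 0 to 1500 in K18+Vim+ against K18+, from 0 to 1988 in K18+Vim+ against K18+K14+ (1500 and 1988 without the HCC70 K18+Vim+ library) and from 206 to 3360 between the lines, where 1522 were called with all libraries. In the last it was 3366 with only the 4 libraries of K18+ and K18+K14+ and 0 with no filter, and the cause was not tested. The populations are paired by line, and without this replicate block the fitted differences were the same (-0.41 for EZH2 in K18+K14+ against K18+, adjusted p = 1.0 in limma) and the block changed no call of a polycomb gene, with 1875 genes called between the lines. Read depth is not in the table, so its limit on JARID2 and CBX8, the lowest genes, is unknown.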
